A study of Mus musculus with 12 samples.

Results

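The glucocorticoid target genes described here are 9 genes, Fkbp5, Sgk1, Tsc22d3, Zbtb16, Errfi1, Pdk4, Nr3c1, Cdkn1a and Sult1a1, chosen by symbol and matched to their Ensembl genes on the mouse build GRCm38. All 9 were found among the 54119 genes summed from the transcript estimates, and all 9 were among the 19150 genes that passed the filter on low counts. The lowest count of any of them in any library was 297 fragments, for Pdk4 in an LPS 15 min library. RNA-seq was performed on cerebral vessels isolated from the forebrain of wild type C57BL6 mice, 2 to 3 months old, after an intraperitoneal injection of lipopolysaccharide (LPS), a component of the bacterial outer membrane that sets off systemic inflammation. Mice were killed 15 min, 30 min or 4 h after LPS at 10 mg/kg, and a PBS group served as baseline, which gave 4 groups of 3 libraries. Each library pooled the vessels of 1 male and 1 female mouse. The time between PBS injection and death, and the time of day, were not given, so that handling of the animals and the daily rhythm of corticosterone cannot be told apart from LPS in any comparison with PBS.

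Glucocorticoids are steroid hormones that the adrenal gland releases under stress and inflammation. They bind a receptor held in the cytoplasm by chaperones, and the bound receptor enters the nucleus, attaches to DNA at glucocorticoid response elements (GREs) and raises or lowers transcription of nearby genes. In cerebral vessels, glucocorticoids are known to tighten endothelial junctions and to restrain inflammatory gene expression. Most of the 9 genes are also regulated by other signals, and Cdkn1a, for example, is a classical target of p53.

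The 12 libraries held between 18309177 and 25882028 assigned fragments. Levels are given as CPM, counts brought to a common library total, scaled by TMM, the trimmed mean of M-values, which sets the bulk of genes equal between libraries. The TMM factors lay between 1.16 and 1.17 in PBS and between 0.715 and 0.718 at LPS 4 h. Without them, scaling by library size alone, the median log2 change of all genes at 4 h moved by -0.704, and the share of called genes that were higher went from 58% to 18.2%. Every 4 h CPM value and log2 or fold change below is relative to the TMM scale, unless another scaling or tool is named. TPM values and transcript shares carry no TMM factor. A gene was called where its change exceeded 1.5-fold in either direction at a Benjamini-Hochberg adjusted p below 0.05 in edgeR's quasi-likelihood fit of all 12 libraries. The 3 comparisons with PBS share the same PBS libraries.

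Summed over 6 genes, endothelial markers reached 8679 to 8966 CPM in PBS and 5933 to 5992 CPM at LPS 4 h, where 4 of the 6 were called lower and 1 higher. Summed over 3 genes including Ttr, choroid plexus markers lay higher, at 10260 to 10689 CPM in PBS and 17251 to 18141 CPM at 4 h, where 2 of the 3 were called higher. The sum of 5 neutrophil markers was 1.95 to 2.56 CPM in PBS, with 2 of them at 0, and 158 to 165 CPM at 4 h, where all 3 that could be tested were called higher. At LPS 15 min, the sum of 4 smooth muscle markers was 1488 to 1508 CPM, against 2346 to 2382 in PBS, with 3 of the 4 called lower, and that of 5 neuronal markers was 480 to 491 CPM, against 307 to 319, with 2 of the 5 called higher. The part of these shifts in the results that follow was not tested. Markers of 1 type could move apart: at 4 h the endothelial marker Cdh5 went from 486 CPM in PBS to 1889, and Cldn5 from 2362 to 475. In these bulk libraries, fewer cells of a type, less RNA per cell and changes of single marker genes were not separated.

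At LPS 15 min, 5 of the 9 genes, Zbtb16, Fkbp5, Tsc22d3, Cdkn1a and Sgk1, were called higher than in PBS, and none was called lower. Over all genes tested, 3.31% were called higher and 0.872% lower at that time. At LPS 30 min, 7 of the 9 were called higher and none lower, with Errfi1 and Sult1a1 joining, against 3.78% and 0.799% of all genes. At LPS 4 h, 6 of the 9 were called higher and 1, Sult1a1, lower, against 19.0% and 13.8% of all genes. The median log2 change of the 9 genes was 0.67, 1.98 and 2.40 at the 3 times. That of all genes lay within 0.0102 of zero at each, where TMM scaling puts the bulk of genes. The 9 genes, and the gene lists below, were chosen with earlier results of these data known. Their counts beside the shares of all genes are therefore a description and not a test. Between successive times, 3 of the 9 were higher at 30 min than at 15 min, and none was lower, where 2.69% and 1.96% of all genes were called. From 30 min to 4 h, 4 were higher and 2 were lower, against 16.9% and 11.8% of all genes.

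**Figure D1:**
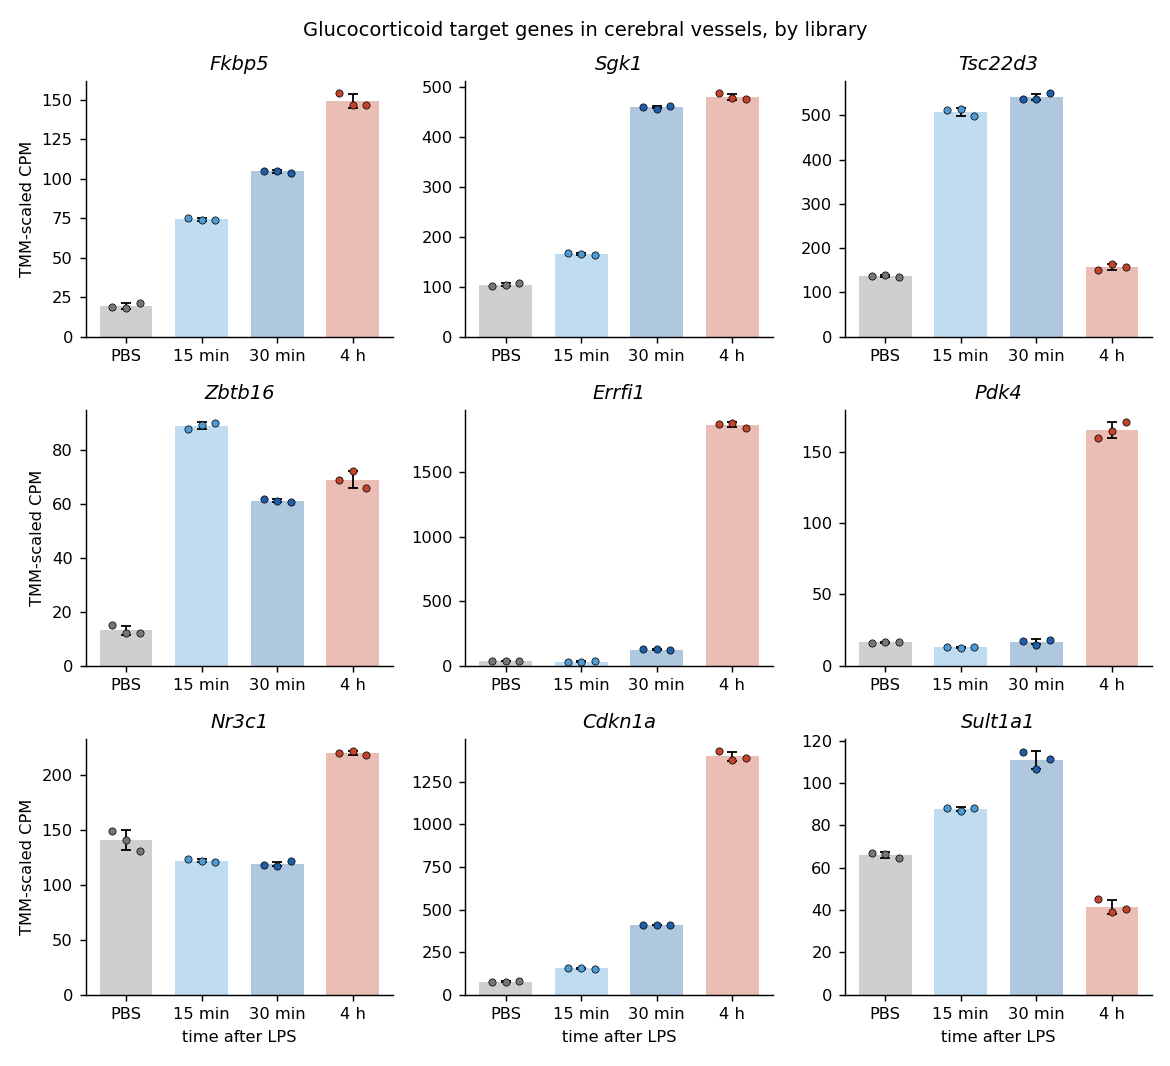
Level of each of the 9 genes in TMM-scaled CPM (linear axis from 0, one scale per panel) in PBS and at 3 times after LPS; bars are means, error bars SD, points the 3 libraries. Fkbp5, Tsc22d3 and Zbtb16 were already high at LPS 15 min, whereas Errfi1 and Pdk4 were highest at LPS 4 h, at 1870 and 165 CPM.

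Nr3c1 (ENSMUSG00000024431), on the minus strand of chromosome 18, encodes the glucocorticoid receptor itself. Its level was 150, 141 and 131 CPM in the PBS libraries, 124, 122 and 121 at LPS 15 min, 119, 118 and 122 at LPS 30 min, and 220, 222 and 218 at LPS 4 h. Both early groups lay below PBS and overlapped each other, and every 4 h library lay above all others. The early differences from PBS, -0.20 ± 0.037 and -0.24 ± 0.037 on the log2 scale (SE), did not exceed 1.5-fold. At 4 h, Nr3c1 was 1.56-fold its PBS level and just missed the call (log2 change 0.64, SE 0.037, edgeR adjusted p = 0.0549). Without PBS replicate 1, the library with the highest Nr3c1 level in its group, the 4 h change was called, with an edgeR adjusted p = 0.00484. That was the lowest value with 1 library left out, and the call depended on which library it was. From 30 min to 4 h the receptor transcript rose 1.84-fold (log2 change 0.88, SE 0.038, edgeR adjusted p = 4.12e-08). On the library-size scale these values were -0.06 against PBS and 0.34 against 30 min, and neither was called.

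Fkbp5 (ENSMUSG00000024222, chr17:28399094-28517527, minus strand) encodes a co-chaperone of HSP90 that lowers the hormone affinity of the receptor and so closes a short feedback loop. It stood at 18.8, 17.9 and 21.6 CPM in PBS, at 75.5, 73.9 and 73.9 at LPS 15 min, at 105, 105 and 104 at LPS 30 min, and at 154, 147 and 147 at LPS 4 h. No groups overlapped, and the order PBS, 15 min, 30 min, 4 h held for every library. Against PBS, Fkbp5 was 3.84-fold higher at the earliest time, 5.40-fold at 30 min and 7.70-fold at 4 h (log2 changes 1.94, 2.43 and 2.94, SE 0.051 for each). The steps between successive times, 1.41-fold and 1.42-fold, stayed under the 1.5-fold limit, and the later step had the value -0.03 on the log2 scale with library size alone.

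Tsc22d3 (ENSMUSG00000031431, chrX:140539528-140600659, minus strand) encodes GILZ, a leucine zipper protein that binds NF-κB and AP-1 and carries part of the anti-inflammatory action of glucocorticoids. Its level was 138, 139 and 135 CPM in PBS, 512, 515 and 498 at LPS 15 min, 537, 538 and 550 at LPS 30 min, and 152, 163 and 158 at LPS 4 h. Both early groups were high, and the 4 h libraries lay far below them and slightly above PBS. Tsc22d3 was 3.70-fold higher at 15 min and 3.95-fold higher at 30 min than in PBS (log2 changes 1.89 and 1.98, SE 0.027 each). At 4 h the log2 change was 0.20 (SE 0.029) and was not called, and it was -0.50 with library size alone. The drop from 30 min to 4 h was called, with a log2 change of -1.78 (SE 0.028, edgeR adjusted p = 1.23e-21). Among the 9 genes, Tsc22d3 and Sult1a1 were called lower at 4 h than at 30 min.

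Zbtb16 (ENSMUSG00000066687, chr9:48654297-48836222, minus strand) encodes PLZF, a zinc finger transcriptional repressor. Its level was 15.1, 12 and 12.1 CPM in PBS, 87.7, 89.2 and 90.1 at LPS 15 min, 61.6, 61.1 and 60.7 at LPS 30 min, and 68.9, 72.1 and 66.1 at LPS 4 h. The 15 min libraries were the highest and the PBS libraries the lowest, with no overlap between groups. At 15 min its 6.82-fold increase was the largest among the 9 genes (log2 change 2.77, SE 0.063), followed by 4.69-fold at 30 min and 5.29-fold at 4 h. The difference between 30 and 15 min, -0.54 ± 0.053 on the log2 scale, did not exceed 1.5-fold. That between 4 h and 30 min was 0.17 and changed sign to -0.36 with library size alone.

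**Figure D2:**
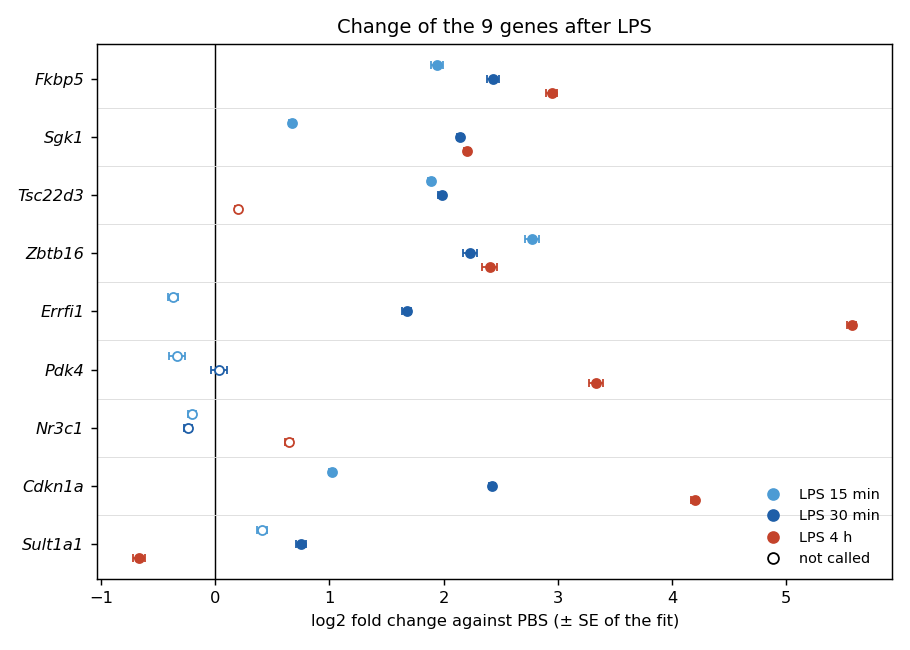
Log2 fold change of the 9 genes against PBS (x axis) at each time after LPS, with the SE of the fit; open points were not called. The 4 h points range from -0.67 for Sult1a1 to 5.57 for Errfi1, and those at 15 min from -0.37 for Errfi1 to 2.77 for Zbtb16.

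Sgk1 (ENSMUSG00000019970, chr10:21882184-21999903, plus strand) encodes a kinase that promotes sodium transport and cell survival. It is transcribed from several start sites, and 3 of its transcripts with different first exons, Sgk1-201, Sgk1-202 and Sgk1-203, are shown by the 250 bases before their starts, because the transcript estimates and the response element both turn on these starts. Capitals mark GRE half-sites, searched as AGAACA or TGTTCT on either strand, and the longest run of capitals, in the window of Sgk1-202, is a whole GRE, AGAACA and TGTTCT separated by 3 bases. The windows are chr10:21991973-21992222 for Sgk1-203, chr10:21993640-21993889 for Sgk1-202 and chr10:21994416-21994665 for Sgk1-201, all on the plus strand of GRCm38.p6, with sequence from RefSeq. None overlaps an annotated exon of Sgk1, and those of Sgk1-202 and Sgk1-201 lie within the first intron of Sgk1-203.
Sgk1-203: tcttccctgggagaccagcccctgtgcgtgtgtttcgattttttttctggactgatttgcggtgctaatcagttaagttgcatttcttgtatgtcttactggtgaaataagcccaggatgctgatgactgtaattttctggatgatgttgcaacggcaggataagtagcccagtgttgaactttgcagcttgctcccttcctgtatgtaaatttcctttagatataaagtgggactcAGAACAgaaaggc
Sgk1-202: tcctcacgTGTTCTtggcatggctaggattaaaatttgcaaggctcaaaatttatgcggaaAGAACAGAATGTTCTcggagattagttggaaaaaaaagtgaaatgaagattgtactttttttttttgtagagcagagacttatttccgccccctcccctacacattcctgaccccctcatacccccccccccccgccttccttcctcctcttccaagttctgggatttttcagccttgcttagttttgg
Sgk1-201: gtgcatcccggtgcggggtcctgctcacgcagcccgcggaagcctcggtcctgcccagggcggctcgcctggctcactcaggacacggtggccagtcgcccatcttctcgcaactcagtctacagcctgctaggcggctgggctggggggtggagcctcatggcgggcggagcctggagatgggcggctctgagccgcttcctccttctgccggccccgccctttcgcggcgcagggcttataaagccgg

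The whole GRE lay at chr10:21993701-21993715, 189 to 175 bases before the start of Sgk1-202 and between 965 and 951 bases before that of Sgk1-201. Of 32851 mouse promoter windows of 300 bases (250 before the start, 50 from it), 3, or 0.00913%, held a whole GRE of these letters, the other two being at Acnat2 and Gm35041. A half-site alone was found in 19.0% of windows. The window of Sgk1-203 held a half-site at -13 to -8 and a TATA box (TATAAA) at -28, and that of Sgk1-201 held a TATA box at -11, a motif in 13.6% of windows. Windows were at hand for 7 of the 9 genes, Nr3c1 and Zbtb16 being left out, and 1 of the other 3 Sgk1 windows held a half-site. Of the other genes, the windows of Tsc22d3 (1 of 3) and Sult1a1 held half-sites, and 1 of the 2 Errfi1 windows held a CREB motif, TGACGTCA, in 1.79% of all windows, at -51 and a TATA box at -28. No half-site was in the windows of Fkbp5, Pdk4, Cdkn1a or Errfi1, and no AP-1 motif (TGACTCA or TGAGTCA) was in any window of the genes searched. These matches describe short windows only, and the Tsc22d3 half-site lay before a start at chrX:140600522. None of the 3 Tsc22d3 windows belonged to the start of Tsc22d3-201 (chrX:140543187), which held a mean of 88.0% of the gene's TPM in PBS.

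Sgk1 stood at 101, 104 and 108 CPM in PBS, at 169, 165 and 163 at LPS 15 min, at 461, 457 and 462 at LPS 30 min, and at 488, 478 and 477 at LPS 4 h. The groups did not overlap, with a small step at 15 min and a large one by 30 min. At 15 min the 1.59-fold change was close to the limit (log2 change 0.67, SE 0.027, edgeR adjusted p = 0.0163) and was lost when PBS replicate 1, PBS replicate 2 or LPS 15 min replicate 1 was left out (adjusted p = 0.114, 0.0502 and 0.0817), and under 7 other settings. Sgk1 was 4.41-fold higher at 30 min and 4.61-fold higher at 4 h than in PBS (log2 changes 2.14 and 2.21, SE 0.027 each). Between 15 and 30 min it rose 2.78-fold (edgeR adjusted p = 3.65e-19), and between 30 min and 4 h the log2 difference was 0.06, or -0.48 with library size alone.

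The transcripts of Sgk1 were compared as shares of the gene's TPM, Salmon's transcript abundance per unit of length. Sgk1-201 held 67.5, 70.3 and 63.2% in PBS and 61.8, 60.7 and 54.1% at LPS 4 h, the highest share in every library. Sgk1-203 held 1.22, 0.25 and 2.16% in PBS, at most 0.41% in any library at 15 or 30 min, and 12.1, 9.87 and 18.2% at 4 h. Each 4 h library thus lay above all 9 others, and the mean TPM of Sgk1-203 was 0.962 in PBS and 25.6 at 4 h (SD 7.62, n = 3). Its estimated fragments were 37, 8.5 and 65.6 in PBS, at most 9.6 at 15 min, and between 791.2 and 1354.8 at 4 h. Sgk1-202, the transcript behind the whole GRE, held 19.0% in PBS and 23.4, 20.8 and 18.3% at the 3 times, and the differences from PBS lay within the spread between libraries (exact permutation test, two-sided, p = 0.2, 0.7 and 1.0). With 3 libraries against 3 the smallest exact permutation p is 0.1, which Sgk1-203 reached at 4 h and, with a lower share than in PBS, at 15 min, and Sgk1-201 at 4 h. Such shares rest on Salmon's split of reads that fit several transcripts.

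**Figure D3:**
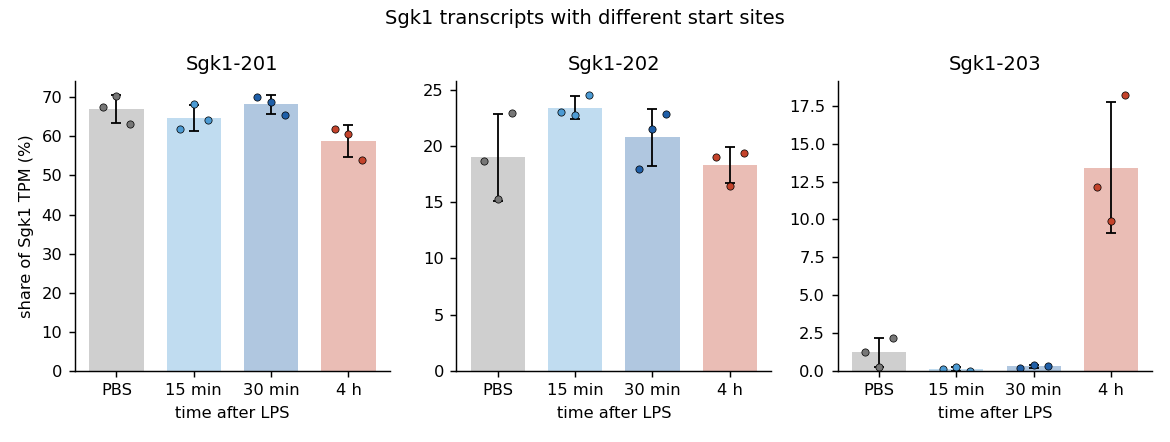
Share of the Sgk1 TPM held by 3 transcripts (y axis in percent, one scale per panel) in each group; bars are means, error bars SD, points the 3 libraries. Sgk1-203 has a mean of 1.21% in PBS and 13.4% at LPS 4 h, while Sgk1-201 holds 67.0% and 58.8%.

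Pdk4 (ENSMUSG00000019577, chr6:5483351-5496309, minus strand) encodes a mitochondrial kinase that switches off pyruvate dehydrogenase and so spares glucose. Its level was 16.1, 16.4 and 16.6 CPM in PBS, 12.8, 12.6 and 13.5 at LPS 15 min, 17.6, 14.8 and 18.0 at LPS 30 min, and 160, 165 and 171 at LPS 4 h. Only the 4 h libraries were high, and the PBS and 30 min libraries overlapped. Neither early time was called (log2 changes -0.34, SE 0.070, and 0.03, SE 0.069). At 4 h Pdk4 was 10.1-fold higher than in PBS (log2 change 3.33, SE 0.058) and 9.85-fold higher than at 30 min (edgeR adjusted p = 5.27e-22).

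Errfi1 (ENSMUSG00000028967, chr4:150853919-150868892, plus strand) encodes MIG6, a feedback inhibitor of the EGF receptor. It stood at 39.4, 39.4 and 38.9 CPM in PBS, at 29.4, 28.7 and 33.0 at LPS 15 min, at 130, 127 and 119 at LPS 30 min, and at 1879, 1883 and 1848 at LPS 4 h. The 15 min libraries lay below PBS, and the later groups stepped up with wide gaps. The 15 min difference of -0.37 (log2, SE 0.044) was not called. Errfi1 was 3.19-fold higher at 30 min and 47.6-fold higher at 4 h than in PBS (log2 changes 1.68 and 5.57, SE 0.039 for each), the largest change among the 9 genes. It rose 4.13-fold between 15 and 30 min and 14.9-fold between 30 min and 4 h. Of 9 tested genes of the EGF receptor system, none was called at 15 min, Areg alone was higher at 30 min on very low counts, and 4 were higher at 4 h: Hbegf (log2 change 3.42), Btc (2.56), Egfr (1.93) and Tgfa (1.59). Erbb2 was lower at 4 h, at -0.82. Over all genes, 3.31, 3.78 and 19.0% were higher and 0.872, 0.799 and 13.8% lower at the 3 times. With 9 genes, the counts at 15 and 30 min lay close to those shares. Btc, like Areg, had few reads, with a mean of 0.33 CPM in PBS.

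Cdkn1a (ENSMUSG00000023067, chr17:29090976-29100727, plus strand) encodes p21, an inhibitor of cyclin-dependent kinases. Its level was 75.3, 75.1 and 78.4 CPM in PBS, 157, 156 and 152 at LPS 15 min, 407, 409 and 408 at LPS 30 min, and 1428, 1377 and 1391 at LPS 4 h. It climbed at each time without overlap. The fold changes against PBS were 2.03, 5.35 and 18.3 (log2 changes 1.02, 2.42 and 4.20, SE 0.027, 0.027 and 0.028), and both steps between successive times were called, at 2.63-fold and 3.43-fold. A list of 12 other p53 target genes held 1 called higher at 15 min, 2 at 30 min and 5 at 4 h, with 1 lower at 4 h, and its median log2 changes were 0.11, 0.33 and 0.24. Over all genes 3.31, 3.78 and 19.0% were called higher at these times and 13.8% lower at 4 h, so that with 12 genes the count at 15 min and the count of lower genes were no more than 1 gene away from those shares. Pmaip1 was higher at all 3 times (log2 changes 1.19, 1.54 and 3.84), and Mdm2, which encodes the ubiquitin ligase of p53, was higher at 4 h (1.44). Other genes of the list had lower means at 4 h than in PBS, among them Zmat3 (22.4 CPM in PBS, 11.4 at 4 h) and Bax (66.9 and 52.7). A gene on the opposite strand that overlaps a Cdkn1a exon, AC167363.2, held 1114 fragments over the 12 libraries, against 106203 for Cdkn1a.

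Sult1a1 (ENSMUSG00000030711, chr7:126672865-126676432, minus strand) encodes a sulfotransferase that conjugates phenols and steroids. Its level was 66.9, 66.5 and 64.5 CPM in PBS, 88.2, 86.9 and 88.2 at LPS 15 min, 115, 107 and 112 at LPS 30 min, and 45.3, 39.0 and 40.6 at LPS 4 h. The early groups lay above PBS and the 4 h group below it, with no overlap. The log2 change was 0.41 (SE 0.043, not called) at 15 min, 0.75 (SE 0.043, edgeR adjusted p = 0.00291) at 30 min and -0.67 (SE 0.050, edgeR adjusted p = 0.0489) at 4 h. The 30 min call was lost by DESeq2 (adjusted p = 0.0649), by limma with either pseudocount (0.315 and 0.371) and with library size alone, where the log2 change was 0.584. The 4 h call was lost under 5 other settings and without PBS replicate 1, PBS replicate 2, LPS 4 h replicate 2 or LPS 4 h replicate 3 (adjusted p = 0.0813, 0.0711, 0.242 and 0.124). The fall from 30 min to 4 h, -1.42 on the log2 scale (SE 0.049, edgeR adjusted p = 5.59e-14), was called. Sgf29, on the opposite strand, shares exon sequence with Sult1a1 and held 3374 fragments over the 12 libraries, against 21810 for Sult1a1, and without strand information the reads of the shared stretch cannot be told apart.

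Per transcript length, in TPM, the order of the 9 genes changed over time. TPM carries no TMM factor, and Tsc22d3, slightly higher in CPM at LPS 4 h than in PBS, went from 123 to 75.0 TPM. In PBS, Tsc22d3 was the most abundant at 123 TPM, followed by Sult1a1 at 102, Sgk1 at 79.9, Cdkn1a at 73.5, Nr3c1 at 39.2, Errfi1 at 22.0, Fkbp5 at 9.46, Pdk4 at 8.02 and Zbtb16 at 4.39, and no neighbours in this order overlapped. Tsc22d3 stayed at the top at 15 and 30 min. At LPS 4 h, Cdkn1a led at 701 TPM and Errfi1, which was at 22.0 TPM in PBS, came next at 573. Fkbp5, Nr3c1 and Sult1a1, at 37.5, 36.8 and 34.4 TPM, overlapped with their neighbours at that time.

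The patterns of pairs of the 9 genes over the 12 libraries were described by Pearson's r of log2 CPM, with libraries that share 4 group means and so are not independent points. Errfi1 and Pdk4 were at 0.961, Pdk4 and Nr3c1 at 0.963, and Sgk1 and Cdkn1a at 0.926. Tsc22d3 was most like Sult1a1 (0.830) and least like Nr3c1 (-0.708). By the same measure over 14579 candidate genes, the nearest genes were Wee1 for Fkbp5 (0.990), Nuak2 for Sgk1 (0.997), Ahsa2 and the clock gene Per2 for Tsc22d3 (0.995 and 0.992), and Klf13 for Zbtb16 (0.982). For the others they were Ptges, which encodes a prostaglandin E synthase, for Errfi1 (0.999), Man1a for Pdk4 (0.999), Srsf5 for Nr3c1 (0.995), Gm45774 for Cdkn1a (0.999) and Nr4a2 for Sult1a1 (0.996).

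A list of 24 other glucocorticoid-responsive genes was examined beside the 9. At LPS 15 min 8 were called higher and 1 lower, at 30 min 13 and 0, and at 4 h 17 and 1, with median log2 changes of 0.42, 0.85 and 1.85. The shares of all genes tested were 3.31, 3.78 and 19.0% higher and 0.872, 0.799 and 13.8% lower. Dusp1, which encodes a phosphatase of MAP kinases, had the largest 15 min change (log2 3.38, SE 0.033), then 3.65 at 30 min and 1.95 at 4 h, and its drop from 30 min to 4 h was called (-1.70), like that of Tsc22d3. Per1, a clock gene with a GRE in its promoter, was higher by 1.42, 1.99 and 1.74 on the log2 scale. Map3k6 and Fam107a were also higher at all 3 times, by 1.49, 1.85 and 3.23 and by 0.87, 1.22 and 2.17.

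Several genes of the list are shared with the inflammatory response and increased most by 4 h, as Errfi1 and Cdkn1a did. Which signal raised any of these genes was not tested. Lcn2, which encodes an iron-sequestering acute phase protein, changed by 1.90, 6.03 and 10.7 on the log2 scale, and Cebpd, a transcription factor gene, by 1.61, 3.59 and 5.75. The metallothionein genes Mt1 and Mt2 were called at 30 min (1.58 and 2.29) and at 4 h (5.48 and 7.0). Nfkbia, which encodes the NF-κB inhibitor IκBα, was higher at all 3 times (1.23, 2.62 and 3.60), and Anxa1, which encodes the anti-inflammatory protein annexin A1, was higher at 4 h (1.69) and at neither early time (-0.49 and 0.02). Ddit4, which encodes an inhibitor of mTOR signaling, was higher at 15 min (0.87) and 4 h (1.45) and was not called at 30 min (0.54). Angptl4, like Pdk4 a gene of fuel use, reached 1.00 at 30 min and 5.43 at 4 h. Klf9, another transcription factor gene, was called at 30 min (0.70) and not at 15 min (0.55) or 4 h (0.54), and the steps between successive times were not called either. Gjb6, an astrocyte gap junction gene, was lower at 15 min (-0.89) and 4 h (-1.25) and not at 30 min (-0.04). The summed level of 5 astrocyte markers was 302 to 332 CPM in PBS. It was 192 to 212 CPM at 15 min and 437 to 467 at 4 h. Gfap made up much of this sum, with mean levels of 77.9 CPM at 15 min, 281 at 4 h and 179 in PBS. Of the 5 markers, only Gfap was called lower at 15 min, and Gfap and Aqp4 were called higher at 4 h. The part of astrocyte content in the Gjb6 values was not tested. Sesn1, Mertk, Cdkn1c and Plin4 were called at none of the 3 times.

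**Figure D4:**
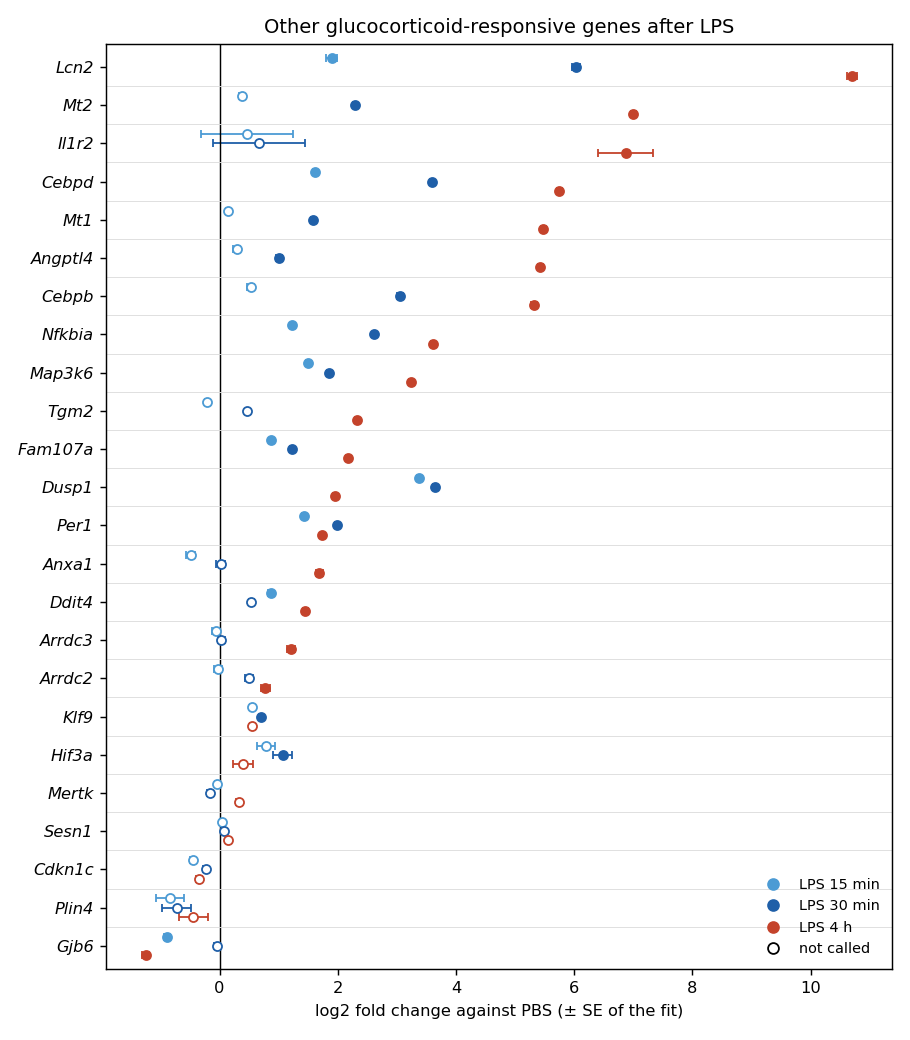
Log2 fold change against PBS (x axis) of 24 other glucocorticoid-responsive genes at each time after LPS, with the SE of the fit, ordered by the 4 h value; open points were not called. Dusp1 and Per1 were called at all 3 times, and Lcn2 reached 10.7 at 4 h.

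Of 16 genes for chaperones, steroid enzymes, the mineralocorticoid receptor and co-regulators that act with the receptor, 15 could be tested, and 2, 5 and 3 were higher at the 3 times, with 0, 0 and 2 lower. Over all genes, 3.31, 3.78 and 19.0% were higher and 0.872, 0.799 and 13.8% lower, so that both 4 h counts lay close to the shares of all genes. The called genes at 15 and 30 min were chaperones. Hsp90aa1, which encodes the inducible HSP90 that holds the receptor ready to bind hormone, was higher by 0.74, 1.51 and 1.30 on the log2 scale. Stip1, a co-chaperone gene, was higher by 0.79, 1.15 and 0.87, and Ptges3, which encodes the p23 co-chaperone, by 0.87 at 30 min and 1.10 at 4 h. Fkbp4, the relative of Fkbp5 that favours receptor activity, was higher at 30 min (0.82) and lower at 4 h (-0.93). The co-activator genes Ncoa1 (-0.41) and Ncoa3 (-0.33) were not called at 4 h, and Ncoa2 was lower (-0.69, edgeR adjusted p = 0.0455). Hsd11b1, whose enzyme regenerates active corticosterone, was at 4.01 CPM in PBS and was not called at any time, and Hsd11b2, whose enzyme inactivates it, was below the filter at 0.304 CPM.

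**Figure D5:**
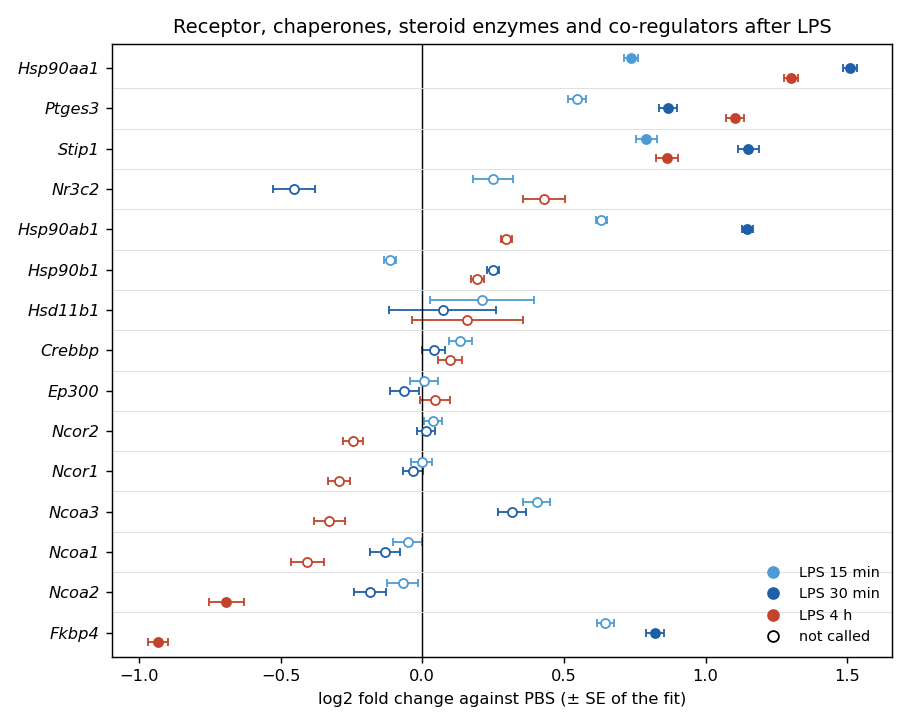
Log2 fold change against PBS (x axis) of 15 genes for chaperones, steroid enzymes, the mineralocorticoid receptor and co-regulators, with the SE of the fit, ordered by the 4 h value; open points were not called. Hsp90aa1 and Stip1 were called at all 3 times, and Fkbp4 had 0.82 at 30 min and -0.93 at 4 h.

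Of 19 tested relatives of the 9 genes, none was called at 15 min, where 3.31% of all genes were higher and 0.872% lower, and 1 (Fkbp4) was higher at 30 min, against 3.78% of all genes. At 4 h, 5 of the 19 were higher and 5 lower, against 19.0% and 13.8% of all genes. Pdk2, the relative of Pdk4, was lower at 4 h (-1.16), and Pdk1 (-0.31) and Pdk3 (0.60) were not called. Sgk3 was higher at 4 h (1.05), as were Tsc22d1 (1.11) and Tsc22d2 (1.06), which belong to the family of Tsc22d3. Cdkn1b, which encodes p27, was lower at 4 h (-0.87) where Cdkn1a was higher.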

How the data were processed

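RNA-seq was performed on cerebral vessels with a low-input, full-length cDNA kit that keeps no strand. The authors estimated transcript levels with Salmon 1.2.1 (processing notes, build GRCm38.p6), and deposited per library the estimated counts and TPM of each transcript, and for the series a gene table of DESeq2-normalized counts, used here as a signal in the limma alternative. From these files, 139852 of 140948 transcripts were joined to GENCODE M21 genes, and estimated counts were summed per gene and rounded. The unjoined transcripts held between 0.482 and 0.85% of fragments.

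Groups came from the sample labels. Genes passing filterByExpr (minimum count 10) were fitted with edgeR 4.0.16 (glmQLFit, TMM, group as the only term) and tested with glmTreat against 1.5-fold, two-sided, with Benjamini-Hochberg adjustment. Transcript shares were tested by exact permutation. The scripts were tested on simulated data. The 9 genes and all gene lists were chosen with earlier results of these data known. Named were the 9 genes, genes of the lists and, per gene, the 2 most correlated genes with a mean of at least 50 counts. Alternatives covered scaling (RLE, library size), filter, fold limit, transcript length, samples in the fit, a replicate block, DESeq2 1.42.0, limma 3.58.1 with 2 pseudocounts, and each library left out. Averaged over genes, replicates of a group differed by more than counting noise in every pair, with a mean squared difference 2.54 to 7.62 times the counting variance. This average need not hold for single genes. Cdkn1a at LPS 30 min (408 CPM, SD 1.02, on 9134 to 9506 fragments) varied less than counting noise. Nr3c1 in PBS (141 CPM, SD 9.14, on 3443 to 4188 fragments) varied more. The labels number the libraries 1 to 3, but same-numbered libraries of different groups correlated at 0.0679 at most in their deviations, so the numbers were not taken as pairs. Whether libraries of a group were processed on separate days was not stated, so the p-values measure the spread between these pools.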

Additional observations from a re-analysis of the deposited data

Results flagged for a closer look

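The effect of LPS on 7 of the 9 genes differed between successive times, each by the edgeR test of that difference itself. Between LPS 15 min and 30 min the log2 change against PBS grew by 1.473 for Sgk1, by 2.045 for Errfi1 and by 1.397 for Cdkn1a. Between LPS 30 min and 4 h it grew by 3.898 for Errfi1, by 3.3 for Pdk4, by 1.777 for Cdkn1a and by 0.8825 for Nr3c1, and the value for Nr3c1 was the only one of these no longer called with library size alone. In the same interval it changed by -1.781 for Tsc22d3 and by -1.418 for Sult1a1.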

How the results depend on the processing

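The number of the 9 genes called stayed within 1.5 times its value under every alternative and with each library left out, except without the fold limit, where 9 were called at LPS 15 min and 8 between LPS 30 min and 15 min, together with 19 of the 24 other responsive genes at 15 min. With the replicate block, the counts were 5, 7 and 7 against PBS and 3 and 6 between successive times, and no call on the 9 genes changed. Scaling by library size alone reversed the sign of 7 values, none of them called by TMM: Pdk4 at 30 min (-0.13), Tsc22d3 (-0.50) and Nr3c1 (-0.0605) at 4 h, Tsc22d3 between 30 and 15 min (-0.0486), and Fkbp5 (-0.0285), Sgk1 (-0.48) and Zbtb16 (-0.36) between 4 h and 30 min. That scaling moved the median log2 change of all genes by -0.165 at 30 min, -0.141 between 30 and 15 min and -0.539 between 4 h and 30 min. It lowered the share of called genes that were higher from 82.6 to 61.4% at 30 min, from 57.9 to 37.2% between 30 and 15 min and from 58.9 to 21.7% between 4 h and 30 min, and raised all calls at 4 h from 6273 to 10462. The difference of Nr3c1 between 30 and 15 min, close to zero, had the values 0.0028 with transcript length as an offset and 0.00687 and 0.00684 by limma with pseudocounts of 1 and 10, and that of Pdk4 at 30 min lay between -0.0175 and 0.118 with 1 library left out. The cause of these changes of sign was not tested.

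Calls close to the 1.5-fold limit moved with the tool. By DESeq2, Sgk1 at 15 min (adjusted p = 0.655) and Sult1a1 at 30 min (0.0649) and 4 h (0.437) were lost, and the 30 min value of Sult1a1 was also lost with library size alone (log2 change 0.584). Nr3c1 at 4 h was called with RLE factors (0.045), with the length offset (0.00207) and by limma (0.00933 and 0.00954), and ranged from 0.00484 to 0.429 with 1 library left out. Over all genes at 15 min, 800 calls became 529 by DESeq2, 406 and 385 by limma and 7393 without a fold limit. At 30 min the limma counts were 531 and 497, against 877, and without a fold limit 7066. Between 30 and 15 min they were 574 by DESeq2, 443 and 413 by limma and 7153 without a fold limit, against 891, and without that limit 13124 genes were called at 4 h, against 6273, and 12498 between 4 h and 30 min, against 5484. The fold limit bounded the calls on the 9 genes at 15 min, where without it all 9 passed, the smallest change being that of Nr3c1 (log2 -0.20, edgeR adjusted p = 9.95e-05).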

Other observations

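Some transcripts of the 9 genes had shares that did not overlap between PBS and a time after LPS. Those given here are examples from many shares compared without adjustment, and the smallest exact permutation p of 0.1 cannot establish a change. Nr3c1-208 held 9.49, 7.62 and 7.16% of the gene's TPM in PBS and 13.3, 11.6 and 13.1% at 4 h, and Nr3c1-206 held 4.74, 0.53 and 2.18% in PBS and 8.04, 7.41 and 12.8% at 4 h. The shares of Nr3c1-206 rest on very few fragments, 9, 1 and 3 in PBS and 11, 11 and 20 at 4 h, and those of Nr3c1-208 on 69.2 to 145.5 in these libraries. Neither pair of groups overlapped, and both reached the smallest exact permutation p of 0.1 (3 libraries against 3). The long transcripts Nr3c1-203 and Nr3c1-204 held between 21.5 and 60.4% in the PBS and 4 h libraries, with groups that overlapped. Cdkn1a-203, which starts inside the gene, held 5.53, 3.86 and 6.04% of the Cdkn1a TPM in PBS and 2.41, 2.41 and 2.24% at 4 h. Fkbp5-201 held a mean of 90.2% of the Fkbp5 TPM in PBS and 98.0, 95.7 and 95.7% at the 3 times. Tsc22d3-201 held a mean of 88.0% of the Tsc22d3 TPM in PBS and 92.5, 93.5 and 92.5%. Both lacked overlap with PBS at each time, again at the smallest exact permutation p of 0.1. Salmon's split of shared reads enters all of these shares.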
